A study of Mus musculus with 4 samples.

Results

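The clustered protocadherins are cadherin-like adhesion proteins whose genes stand in 3 neighbouring clusters, alpha, beta and gamma, on mouse chromosome 18. They were described here in the cerebral cortex of C57BL/6 embryos at embryonic day 16 (E16), by RNA sequencing of Cd93 KO and wild type (WT) tissue. Genes were taken by name from the rows that both deposited count tables hold, which gave 54 of 20385 genes: 12 in the alpha, 21 in the beta and 21 in the gamma cluster. One further row, a second Pcdha11 entry (ENSMUSG00000102206) with 4 counts in KO 6 and 1 count in WT 1, stood in 1 table only and was not used. Further genes of the family were not analysed here.

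There were 4 libraries of total RNA, KO 5 and KO 6 against WT 1 and WT 4. Stage, strain and tissue are the same for every library, and genotype is the only labelled difference. The series text mentions triplicates, and these 4 libraries were analysed here. The labels do not say how the Cd93 allele was made, which cells lose the gene, or whether each library is 1 embryo, so a p-value measures the spread between these libraries. Each deposited table sets a single KO library beside a single WT library: table A has KO 6 and WT 1, table B has KO 5 and WT 4. Listed counts summed to 17555476 in KO 5 and 16318317 in KO 6, against 17586157 in WT 1 and 17158867 in WT 4. Cd93 itself was at 6.22 ± 0.166 CPM (counts scaled to 1 common library size) in KO and 31.1 ± 10.1 CPM in WT (SD, n = 2 each), with an adjusted p of 0.211 by edgeR. The 10 neuronal markers were all detected, with summed levels of 8998 CPM in KO 5 and 9475 CPM in KO 6, against 8460 CPM in WT 1 and 9485 CPM in WT 4.

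In the alpha and gamma clusters each gene is a promoter with its own large first exon, the variable exon, which is spliced to constant exons that all genes of the cluster share, so that alpha proteins share one cytoplasmic end and gamma proteins another. The beta genes have no constant exons. Single neurons transcribe few of the variable exons, chosen largely at random through promoter contacts made by the DNA-binding protein CTCF and the cohesin ring, and the resulting surface identity is read by like-to-like binding, which keeps the branches of one neuron apart. The last genes of the alpha and gamma clusters, called C-type, are instead used by most cells of a kind. A dissected cortex pools many cells, so a level below is an average over all of them, and fewer cells using a gene and less RNA per using cell cannot be told apart.

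The shared exons set what these counts can measure. In the mouse GENCODE annotation, all 12 alpha genes hold the same 2860 exon bases and all 21 gamma genes the same 2116. A read inside them belongs to every gene of the cluster, and counts that name 1 gene rest on the remaining sequence. For alpha genes 35.1% to 51.4% of exon bases overlapped no other gene on either strand, for gamma genes 26.4% to 68.5%, and for beta genes 36.5% to 100%. Levels per length below use these own bases, 1107 to 8695 per gene. The genes are also close copies of each other. Of the 25-base words in the own bases, a median of 22.8% in alpha, 11.7% in beta and 8.10% in gamma genes stood in a transcript of another gene as well, and at most 1.61% in the 5 C-type genes and 0.276% in Pcdhga7. Counts of genes with larger shares are uncertain where reads of copies were split or dropped. All 54 carry the Cadherin_2 domain annotation in the deposited tables.

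All 54 genes had counts in every library, and most were low. The mean over the 4 libraries ran from 0.467 CPM to 39.6 CPM per gene, with a median of 4.27 CPM, where the median of the 16371 genes tested was 20.97 CPM. Together they took 0.0340% of listed counts in KO 5 and 0.0356% in KO 6, against 0.0291% in WT 1 and 0.0334% in WT 4. The gamma cluster held the larger part of their summed CPM, 58.6% in KO 5 and 52.2% in KO 6, against 51.0% in WT 1 and 50.4% in WT 4. The beta cluster held 33.2% in KO 5 and 40.2% in KO 6, against 40.4% in WT 1 and 41.9% in WT 4. The alpha cluster had 7.54% to 8.58% in any library. Scaled to own exon length, the median gene stood at 1.05 CPM per kb in alpha, 1.12 in beta and 2.43 in gamma.

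**Figure D1:**
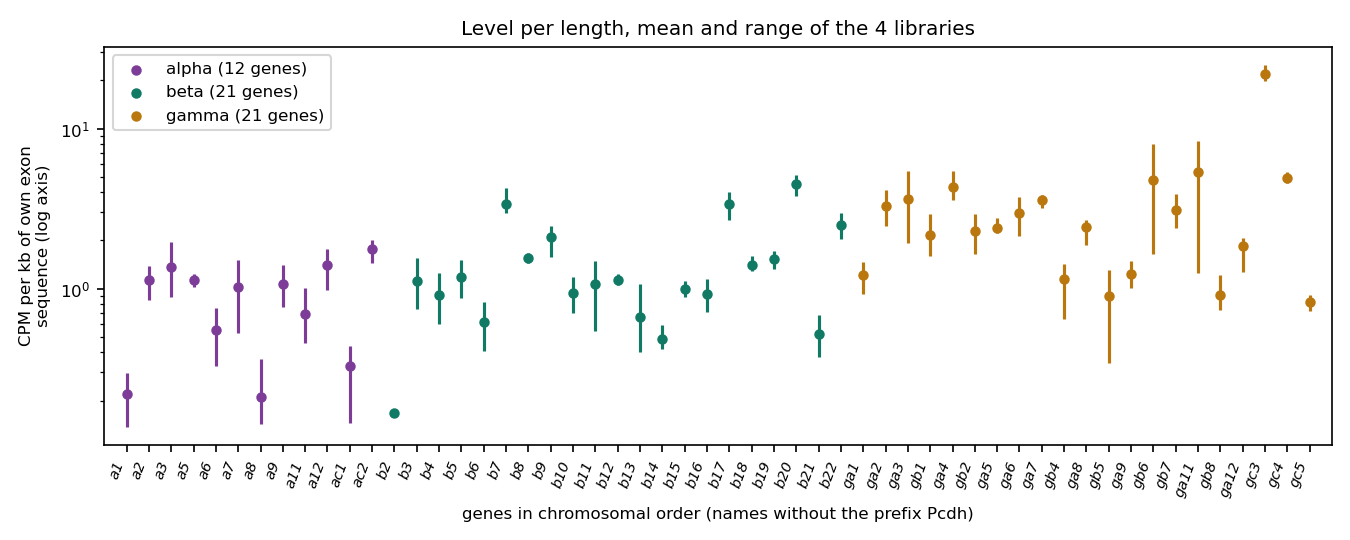
Level of each of the 54 genes in CPM per kb of own exon sequence (log axis), in chromosomal order and coloured by cluster. Points are the mean of the 4 libraries and lines run from the lowest to the highest library; Pcdhgc3 stands highest at 21.8 CPM per kb and Pcdhb2 lowest at 0.166 CPM per kb.

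The C-type genes did not share one level. Pcdhgc3, whose protein binds Axin1 and restrains Wnt signalling, was the most abundant gene of the family, at 36.8 CPM in KO 5 and 35.9 CPM in KO 6, against 45.4 CPM in WT 1 and 40.4 CPM in WT 4. Pcdhgc4, the gamma gene on which survival of cortical interneurons depends, was at 17.6 CPM in KO 5 and 18.6 CPM in KO 6, against 15.9 CPM in WT 1 and 16.4 CPM in WT 4. For both genes the genotypes did not overlap, with Pcdhgc3 lower and Pcdhgc4 higher in KO. Their log2 fold changes were -0.24 (SE 0.12) and 0.17 (SE 0.14). The same held for Pcdhac1, lower in KO, and for Pcdhgc5, higher by 3.822 CPM in KO 6 against 3.819 CPM in WT 4. Of the 5 C-type genes 2 were thus higher and 2 lower without overlap. Of all tested genes 11.5% were higher and 11.9% lower in KO by this rule. Pcdhgc5, a gene known for use in the postnatal brain, averaged 4.02 ± 0.285 CPM in KO and 3.57 ± 0.353 CPM in WT (SD, n = 2 each). Pcdhac2, needed for even spacing of serotonergic axons, averaged 5.74 ± 0.527 CPM in KO and 5.04 ± 0.984 CPM in WT and was the most abundant alpha gene. Pcdhac1 was rare, at 0.856 CPM in KO 5 and 0.370 CPM in KO 6, against 1.13 CPM in WT 1 and 0.999 CPM in WT 4, from 6 to 20 counts per library. Per length, Pcdhgc3 stood at 21.8 CPM per kb and Pcdhac1 at 0.327 CPM per kb, a 66.5-fold range within the C-type group. An antisense gene, BC037039, covers part of the Pcdhgc3 exons, and with the length free of same-strand genes only the level of Pcdhgc3 was 11.7 CPM per kb, still first of the 54.

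**Figure D2:**
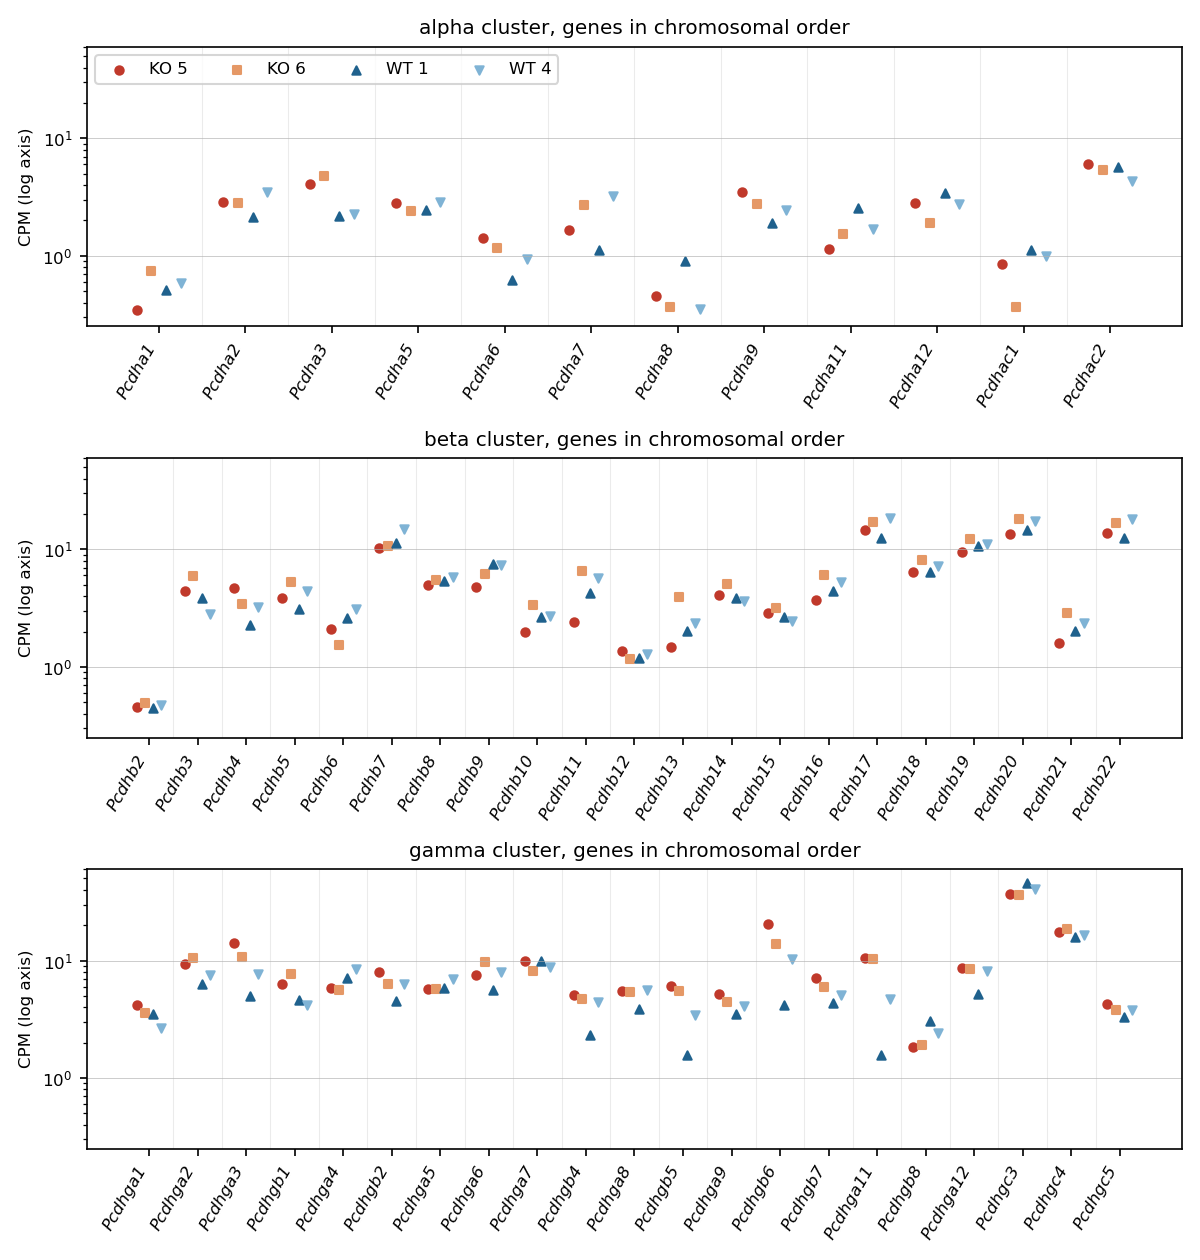
CPM of each gene in each library (log axis), by cluster and in chromosomal order, KO libraries as circles and squares and WT libraries as triangles. In the gamma panel both KO libraries lie above both WT libraries for Pcdhga11, Pcdhgb6, Pcdhgb5 and Pcdhga3, while most beta genes have the genotypes interleaved.

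The order of the levels within a cluster was compared between libraries by Spearman's rho of CPM per kb, a description across genes that share sequence and libraries. Over the 21 beta genes rho lay between 0.871 and 0.940 in the 4 library pairs compared, KO 6 with KO 5, WT 1 with WT 4, KO 6 with WT 1 and KO 5 with WT 4. Over the 21 gamma genes it was 0.958 between the KO libraries, 0.814 between the WT libraries, 0.703 between KO 6 and WT 1 and 0.906 between KO 5 and WT 4. Over the 12 alpha genes it was lower, at 0.832 between the KO libraries, 0.685 between the WT libraries, 0.538 between KO 6 and WT 1 and 0.741 between KO 5 and WT 4. In the beta cluster Pcdhb20, Pcdhb17 and Pcdhb22, near its downstream end, each averaged 15.3 to 16.1 CPM in either genotype, and Pcdhb7 and Pcdhb19 followed at 10.6 ± 0.321 and 10.9 ± 2.06 CPM in KO and 13.2 ± 2.52 and 10.9 ± 0.250 CPM in WT (SD, n = 2 each). The lowest, Pcdhb2, had 8 counts in each of the 4 libraries. In the alpha cluster Pcdha3, Pcdha2, Pcdha12 and Pcdha9 followed Pcdhac2 by the mean of the 4 libraries. In WT alone Pcdha12 at 3.10 CPM and Pcdha2 at 2.80 CPM stood above Pcdha3 at 2.24 CPM. Per length the alpha genes other than the C-type ones spanned 0.210 to 1.40 CPM per kb. In the gamma cluster the highest gene after Pcdhgc3 and Pcdhgc4 by that mean was Pcdhgb6, then Pcdhga3 and Pcdhga7. In WT alone Pcdhga7 at 9.36 CPM and Pcdhga4 at 7.83 CPM stood above Pcdhgb6 at 7.31 CPM and Pcdhga3 at 6.35 CPM. Position along the cluster tracked the level only weakly, with a rho of 0.273 over the 21 beta genes and -0.106 over the 18 gamma A and B genes.

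No clustered protocadherin passed the test of KO against WT. Of the 54 genes, 52 had enough counts to be tested, all but Pcdha8 and Pcdhb2, and 0 passed edgeR's quasi-likelihood test at a Benjamini-Hochberg adjusted p of 0.05. The background was 0.0% of tested genes called higher and 0.0122% called lower in KO, and each of the 52 had an adjusted p of 0.9999 in that test. DESeq2 called 0 of the 52 as well, against a background of 0.0122% higher and 0.0367% lower, and edgeR without the filter called 0 of 54, against 0.0% higher and 0.00981% lower. Leaving out KO 5 or KO 6 also gave 0 of the 52, where 0.0305% of tested genes were called lower in either case. At an unadjusted p under 0.05 there were 6, all higher in KO, where 1.94% of tested genes reached that level, 0.666% higher and 1.27% lower. They were Pcdhga11, Pcdhga3, Pcdha3, Pcdhgb5, Pcdhgb6 and Pcdhgb1, the last named after its values were seen. The median log2 fold change was 0.12 over the 52 genes, of which 35 were higher and 17 lower, and -0.0028 over all tested genes.

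The gamma A and gamma B genes, the variable genes of the gamma cluster, were higher as a group in both KO libraries. Their 18 genes summed to 141 CPM in KO 5 and 129 CPM in KO 6, against 82.2 CPM in WT 1 and 109 CPM in WT 4. The lower KO sum lay above the higher WT sum, and the KO mean was 1.41-fold the WT mean. For 12 of the 18 genes both KO libraries stood above both WT libraries, a share of 66.7%, and for 3 both stood below. The background was 11.5% of tested genes with KO above WT and 11.9% with KO below. Pcdhgb2 counts among the 12 by a gap far below counting error, at 6.29 CPM in KO 6 and 6.29 CPM in WT 4. The gap was also narrow for Pcdhga1, at 3.58 CPM in KO 6 and 3.49 CPM in WT 1. Between KO 6 and WT 4 it was 8.51 against 8.17 CPM for Pcdhga12 and 4.75 against 4.41 CPM for Pcdhgb4. For Pcdhga9 it was 4.44 against 4.11 CPM. Of the 3 genes with KO below, Pcdhga5 was close as well, at 5.71 CPM in KO 5 and 5.85 CPM in WT 1. The 12 are thus not all clear separations. The median log2 fold change of the 18 was 0.38. As a log2 ratio the KO sum was higher by 0.65 within table A and by 0.37 within table B. WT 1 over WT 4 gave -0.41, a step between WT libraries larger than the genotype step of table B. The planned sum was that of all 21 gamma genes, gamma C included, and the gamma A and B grouping was outside that plan. This whole sum was 200 CPM in KO 5 and 187 CPM in KO 6, against 147 CPM in WT 1 and 170 CPM in WT 4. Its KO mean was 1.22-fold the WT mean, with log2 ratios of 0.35 within table A and 0.24 within table B.

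**Figure D3:**
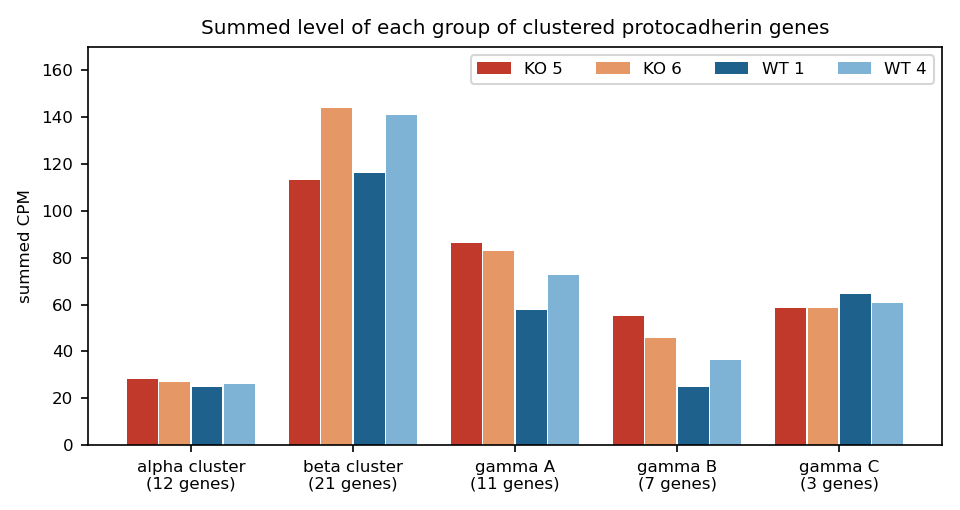
Summed CPM of the genes of each group, 1 bar per library starting at 0, KO libraries left of WT libraries. Gamma A and gamma B stand higher in KO 5 and KO 6 than in either WT library, the beta sums pair KO 6 with WT 4 and KO 5 with WT 1, and the gamma C sums are lower in both KO libraries.

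Both subfamilies took part. The 7 gamma B genes summed to 54.9 CPM in KO 5 and 45.9 CPM in KO 6, against 24.7 CPM in WT 1 and 36.2 CPM in WT 4, a 1.65-fold higher mean in KO. The 11 gamma A genes summed to 86.2 CPM in KO 5 and 82.8 CPM in KO 6, against 57.5 CPM in WT 1 and 72.7 CPM in WT 4, 1.30-fold higher. The difference between these subfamilies was not tested. The gamma C sum was lower in KO, at 58.6 CPM in KO 5 and 58.4 CPM in KO 6, against 64.6 CPM in WT 1 and 60.6 CPM in WT 4, through Pcdhgc3. The share of the gamma sum held by Pcdhgc3 was 18.4% in KO 5 and 19.2% in KO 6. In WT 1 it was 30.9% and in WT 4 23.8%. Both the lower Pcdhgc3 level and the higher gamma A and B sum enter this share.

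Pcdhga11, Pcdhgb6, Pcdhgb5 and Pcdhga3, each a surface recognition protein with a variable exon of its own, had the widest steps of the gamma cluster. Together these 4 genes made up most of the step in the gamma A and B sum. Pcdhga11 (chromosome 18, 37755731 to 37841873 on GRCm38, plus strand) had 183 counts in KO 5 and 167 in KO 6, against 28 in WT 1 and 80 in WT 4. Its KO libraries were nearly equal and its WT libraries differed by more than 2-fold. The level was 10.4 ± 0.108 CPM in KO and 3.14 ± 2.21 CPM in WT (SD, n = 2 each). The log2 fold change was 1.73 (SE 0.47, unadjusted p 0.00881 by edgeR). Pcdhgb6 (37742094 to 37841873) had 358 counts in KO 5 and 224 in KO 6, against 75 in WT 1 and 177 in WT 4, and the lower KO library stood above the higher WT library. Its level was 17.1 ± 4.69 CPM in KO and 7.31 ± 4.37 CPM in WT, a log2 fold change of 1.23 (SE 0.42). Pcdhgb5 (37731009 to 37841873) had 106 and 89 counts in KO 5 and KO 6, against 28 and 59 in WT 1 and WT 4, a log2 fold change of 1.20 (SE 0.40). Pcdhga3 (37674307 to 37841873) had 247 and 175 counts in KO 5 and KO 6, against 89 and 131 in WT 1 and WT 4, a log2 fold change of 0.97 (SE 0.28). All 4 were higher in KO in both tables. The log2 ratios in table A, then table B, were 2.62 and 1.13 for Pcdhga11 and 1.68 and 0.97 for Pcdhgb6. They were 1.73 and 0.78 for Pcdhgb5 and 1.09 and 0.86 for Pcdhga3. Because p in fits of these same libraries helped to name the 4 genes, this agreement is no independent support.

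The calls depended on which WT library was used. Without WT 4, so that WT 1 alone stood for the WT and was assumed to vary like the KO libraries, edgeR called 3 of the 52 genes, all higher, where 0.195% of tested genes were called higher and 1.11% lower. They were Pcdhga11, at a log2 fold change of 2.72 with an adjusted p of 0.000494, Pcdhgb6, at 2.02 with 0.00271, and Pcdhgb5, at 1.87 with 0.0262. Without WT 1 edgeR called 0 of the 52, where 0.0367% of tested genes were called higher and 0.110% lower, and the log2 fold changes were 1.14, 0.72 and 0.73. Blocking on the deposited table, the adjusted p by edgeR was 0.0987 for Pcdhga11 and 0.0547 for Pcdhgb6, and 0 of the 52 were called, against 0.0122% of tested genes higher and 0.165% lower.

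Markers of other cell types differed as well, and several lists were highest in WT 1. The 8 meningeal and fibroblast markers, of which all 7 tested were lower in KO, summed to 29.5 CPM in KO 5 and 42.8 CPM in KO 6, against 451 CPM in WT 1 and 68.3 CPM in WT 4. All 10 ganglionic eminence and interneuron markers were lower in KO, with sums of 320 CPM in KO 5 and 477 CPM in KO 6, against 867 CPM in WT 1 and 465 CPM in WT 4. Endothelial markers summed to 113 CPM in KO 5 and 112 CPM in KO 6, against 198 CPM in WT 1 and 112 CPM in WT 4, and microglial markers to 40.9 CPM in KO 5 and 44.1 CPM in KO 6, against 86.3 CPM in WT 1 and 43.9 CPM in WT 4. All 7 tested endothelial and all 8 microglial markers were lower in KO. The sums of progenitor and radial glial markers were 1909 CPM in KO 5 and 1670 CPM in KO 6, against 1973 CPM in WT 1 and 1761 CPM in WT 4. Those of choroid plexus markers were 5.14 CPM in KO 5 and 17.1 CPM in KO 6, against 14.6 CPM in WT 1 and 3.41 CPM in WT 4. Olfactory and serotonergic markers reached 2.00 CPM at most. Without a block, edgeR on 4 libraries called 0 of these markers, and DESeq2 called 0. By edgeR the unadjusted p was under 0.05 for 5 of 10 ganglionic eminence, 6 of 7 meningeal and 2 of 8 microglial markers tested. Of the 10 neuronal markers 8 were higher and 2 lower in KO, and 1 had an unadjusted p under 0.05 by edgeR. That marker was Bcl11b, lower in KO at a log2 fold change of -0.31 (SE 0.11). Blocked by table, edgeR called 8 ganglionic eminence and 6 meningeal markers, and without WT 4 it called 9 ganglionic eminence, 7 meningeal, 2 endothelial and 1 microglial marker. Without WT 1 it called 1 meningeal marker. No marker found in both tables was at 0 counts in a library. Their part in the gamma difference was not tested. Between KO 5 and WT 4 alone, the gamma A and B sum was higher in KO by the log2 ratio of 0.37 given above. In that pair the ganglionic eminence and meningeal markers had median log2 ratios of -0.85 and -1.28. Of the meningeal markers, Foxc1 went the other way there, at 1.01, and the untested Foxd1 had 9 counts in KO 5 and 6 in WT 4. The medians of the endothelial and microglial markers in that pair were 0.015 and -0.27.

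**Figure D4:**
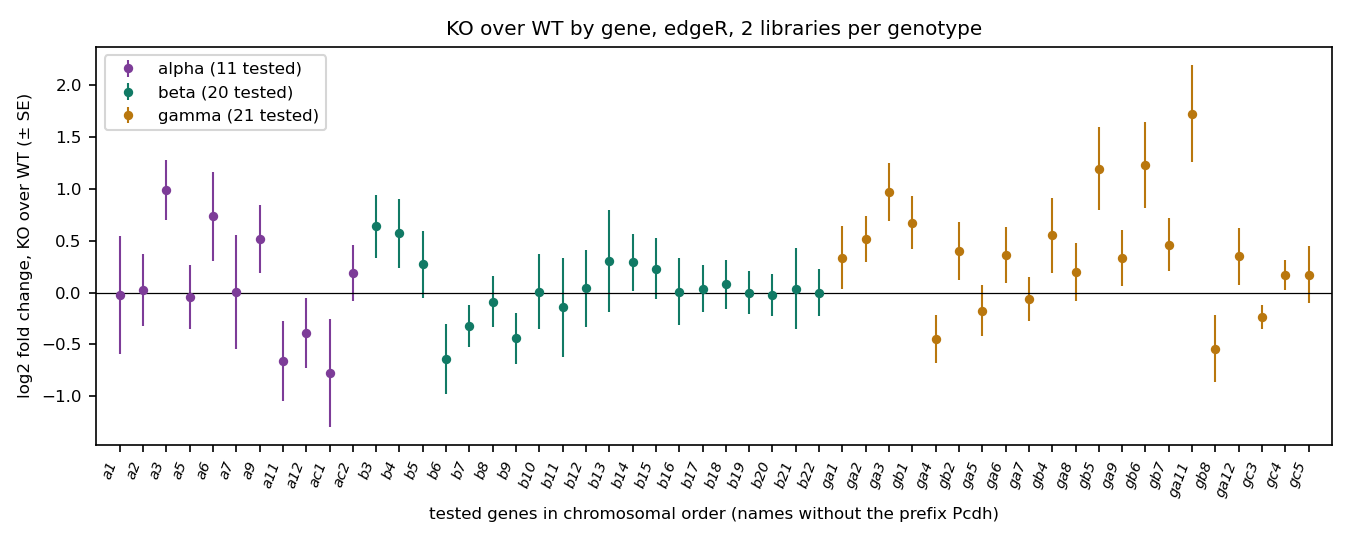
Log2 fold change of KO over WT for the 52 tested genes in chromosomal order, from edgeR with 2 libraries per genotype. The SE shown was derived from the edgeR test statistic. Gamma A and B genes lie mostly above 0, up to 1.73 for Pcdhga11, and the downstream beta genes from Pcdhb16 to Pcdhb22 lie close to 0.

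Not every gamma gene was higher. Pcdhga7 averaged 8.98 ± 1.19 CPM in KO and 9.36 ± 0.771 CPM in WT (SD, n = 2 each), with overlapping libraries. The 3 gamma A and B genes with both KO libraries below both WT libraries, named after their values were seen, were Pcdhga4, Pcdhga5 and Pcdhgb8. Pcdhga4 had a log2 fold change of -0.45 (SE 0.23) and Pcdhga5 -0.17 (SE 0.24). Pcdhgb8, annotated as a polymorphic pseudogene, had 32 and 31 counts in KO 5 and KO 6, against 54 and 41 in WT 1 and WT 4, and a log2 fold change of -0.54 (SE 0.32). Position within the gamma A and B genes did not order the changes, with a rho of 0.0279. Pcdhgb7, Pcdhga11 and Pcdhga12 have exons covered by the antisense gene Gm26672, which had 3 counts in KO 5 and 16 in KO 6, against 7 in WT 1 and 9 in WT 4, too few to be tested. Whether the counting used strand is not given in the sources used here, so reads of antisense partners cannot be told apart.

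The beta cluster as a whole did not separate the genotypes. Its 21 genes summed to 113 CPM in KO 5 and 144 CPM in KO 6, against 116 CPM in WT 1 and 141 CPM in WT 4. KO 6 was close to WT 4 and KO 5 close to WT 1, so table A gave a log2 ratio of 0.31 and table B one of -0.32. Of the 20 tested beta genes, 13 went opposite ways in the 2 tables, where 54.9% of all tested genes did, and 13 had overlapping libraries, where 76.6% of all tested genes did, so neither count sets the beta genes apart. The genes of smallest p were Pcdhb3, at 5.19 ± 1.04 CPM in KO and 3.32 ± 0.712 CPM in WT, Pcdhb6, at 1.83 ± 0.404 CPM in KO and 2.85 ± 0.371 CPM in WT, and Pcdhb9, at 5.48 ± 0.968 CPM in KO and 7.44 ± 0.0575 CPM in WT (SD, n = 2 each). Their log2 fold changes were 0.64 (SE 0.31), -0.64 (SE 0.34) and -0.44 (SE 0.25). The widest step between KO libraries was that of Pcdhb11, singled out after its values were seen, with 42 counts in KO 5 and 107 in KO 6, against 75 in WT 1 and 97 in WT 4. Between the KO libraries the beta genes differed by a median of 0.39 on the log2 scale, where all tested genes differed by 0.19. The median level was 4.25 CPM for the 21 beta genes and 20.97 CPM for all tested genes. Counting error widens log2 differences at low levels, so these 2 medians are not directly comparable.

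The alpha cluster had the lowest sums. Its 12 genes summed to 28.0 CPM in KO 5 and 27.0 CPM in KO 6, against 24.7 CPM in WT 1 and 26.0 CPM in WT 4. The mean was 1.08-fold higher in KO, at 27.5 CPM against 25.4 CPM in WT. The sums did not overlap, but KO 6 and WT 4 stood within counting error of each other, at 438 and 443 counts. Pcdha3 alone had a step as wide as that of the whole sum. Of the 11 tested, 6 were higher in KO and 5 lower, and their log2 fold changes had a median of 0.0041. Pcdha3 stood out, with 72 counts in KO 5 and 78 in KO 6, against 39 in each of WT 1 and WT 4. Both pairs of libraries were close, and the level was 4.46 ± 0.493 CPM in KO and 2.24 ± 0.0684 CPM in WT (SD, n = 2 each). The log2 fold change was 0.99 (SE 0.29, unadjusted p 0.0123 by edgeR), and table A gave 1.09 where table B gave 0.81. Pcdha6, at 1.30 ± 0.181 CPM in KO and 0.779 ± 0.227 CPM in WT, and Pcdha11, at 1.34 ± 0.282 CPM in KO and 2.12 ± 0.586 CPM in WT, came next by p, at 0.74 (SE 0.43) for the log2 change of Pcdha6 and -0.66 (SE 0.39) for that of Pcdha11. Among the other abundant alpha genes the log2 fold change was 0.023 (SE 0.35) for Pcdha2, 0.51 (SE 0.33) for Pcdha9 and -0.39 (SE 0.34) for Pcdha12.

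The tables A and B share no library, so each gives its own KO over WT ratio. Across the 21 gamma genes the 2 ratios had a Pearson's r of 0.80 and a Spearman's rho of 0.70, against 0.11 and 0.03 across the 20 beta genes and 0.15 and 0.10 across the 11 alpha genes. Across all 16371 tested genes they were 0.01 and -0.07. These are descriptions across genes, which share libraries and, within a cluster, sequence. Of the gamma genes 14 were higher in both tables and 4 lower in both, against 4 and 3 of the 20 beta genes, where 22.3% of tested genes were higher and 22.9% lower in both tables. In the authors' deposited table A, which sets 1 library against 1, 8 of the 54 genes were marked significant, of which 7 were higher in KO. In the authors' deposited table B the marked genes were Pcdhga11, higher, and Pcdhb11, lower. The share of all genes marked by the authors was not read here, so these marks stand without a background. Pcdhga11 was the 1 gene marked in both of the authors' deposited tables, at deposited fold changes of 6.43 and 2.24.

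**Figure D5:**
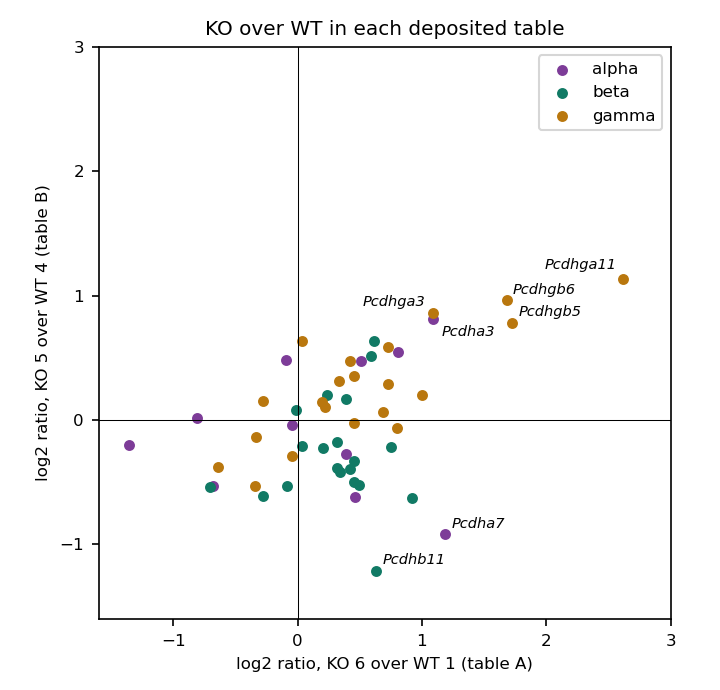
Log2 ratio of KO 6 over WT 1 (table A) on the horizontal axis and of KO 5 over WT 4 (table B) on the vertical axis for the 52 tested genes, coloured by cluster. Gamma genes spread along the diagonal with Pcdhga11 farthest out at 2.62 and 1.13, while many beta genes lie in the lower right, higher in KO in table A and lower in table B.

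Genes that act with the clusters did not pass the test either. Of 20 genes of chromosome architecture and promoter choice, edgeR called 0, and 0 had an unadjusted p under 0.05. Of these 6 were higher in KO and 14 lower, around a median log2 fold change of -0.055. Ctcf, given for its role at the promoters and not by its p, averaged 148 ± 2.60 CPM in KO and 145 ± 7.61 CPM in WT (SD, n = 2 each). The 4 of smallest p were Lbr, Rest, Dnmt3a and Wiz, at log2 fold changes of -0.19, 0.15, -0.17 and -0.12. Of 22 signalling partners and processing enzymes edgeR called 0, with 0 at an unadjusted p under 0.05, 13 higher, 9 lower and a median of 0.016. Ptk2b, the gene of the kinase PYK2 that clustered protocadherins restrain, averaged 10.6 ± 2.92 CPM in KO and 7.10 ± 0.257 CPM in WT, and its log2 fold change was 0.57 (SE 0.26). Psen2, Nlgn1 and Src had 0.19, 0.14 and -0.09.

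The 12 non-clustered protocadherins, whose genes stand alone, had 6 higher, 6 lower and 0 called by edgeR, and 0 at an unadjusted p under 0.05, around a median of -0.0055. Pcdh18 averaged 20.7 ± 0.156 CPM in KO and 25.1 ± 4.48 CPM in WT, and Pcdh10 55.9 ± 3.51 CPM in KO and 67.5 ± 21.8 CPM in WT (SD, n = 2 each). Their log2 fold changes were -0.28 (SE 0.16) for Pcdh18 and -0.27 (SE 0.21) for Pcdh10, beside 0.26 (SE 0.27) for Pcdh11x and 0.24 (SE 0.22) for Pcdh20. Of 12 tested genes at the edges of and between the clusters edgeR called 0, with 0 at an unadjusted p under 0.05 and log2 fold changes between -0.21 and 0.035. Taf7, a transcription factor subunit gene between the beta and gamma clusters, stood at the low end with -0.21 (SE 0.14), beside Arap3 at -0.19 (SE 0.34) and Rell2 at -0.05 (SE 0.14), and Hars2 at the high end. Of 17 other cadherin-family genes of the cortex edgeR called 0, with 0 at an unadjusted p under 0.05 and a median of 0.019. Cdh1, the epithelial cadherin, had the widest step, 0.887 ± 1.01 CPM in KO and 2.34 ± 1.39 CPM in WT, a spread within each genotype close to the difference. DESeq2, the block and leaving out either WT library likewise called 0 genes of these 5 lists.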

How the data were processed

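Whole counts per Ensembl gene were made by the authors and deposited in 2 tables. Tools listed in the submitters' processing notes, with no roles, are HTSeq 0.6.0, TopHat2 2.0.12 and Bowtie2 2.2.3, and the build listed is mm9, while the deposited positions of all 54 genes equal those of GENCODE mouse release 21 on GRCm38. The deposited tables also hold the authors' CPM per library, checked here against the counts and not used further, and their fold (ratio), log2 fold change, p-value and adjusted p-value columns, which compare 1 library with 1 library. Of these comparisons only the values of the 54 genes were read. Counts of the 20385 genes in both tables were tested by edgeR 4.0.16 under R 4.3.3 (filterByExpr, 16371 genes tested, TMM factors 0.994 to 1.012, quasi-likelihood test, Benjamini-Hochberg adjustment over all tested genes, two-sided, threshold 0.05) and DESeq2 1.42.0. CPM here are scaled by TMM. For single genes, the ratio inside 1 table is a difference of log2 CPM after adding a prior count of 2, and for sums it is the ratio of the summed CPM. Log2 fold changes are KO over WT. Their SE is no output of edgeR. It was derived here as the size of the log2 fold change divided by the square root of the quasi-likelihood F statistic. The SE by DESeq2 was 0.46 for Pcdha3 and 0.41 for Pcdhgb6, where the derived SE was 0.29 and 0.42. Exon lengths and 25-base words come from GENCODE release 21. Alternatives were DESeq2, other size factors, no filter, the table as a block and leaving out each library. Named genes are the C-type genes, the 5 of highest CPM and the 3 of smallest p per cluster, those passing in an alternative, and up to 4 genes of smallest p per other list. The genes and lists were chosen with earlier results of these data known. The scripts were tested on simulated data. A count was 0.0563 to 0.0616 CPM, and a count of 0 would allow up to 3 counts, or 0.169 to 0.185 CPM, for counting error only. Tables and plots were made with matplotlib 3.10.9, scipy 1.17.1, pandas 2.3.3 and Python 3.11.15.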

Additional observations from a re-analysis of the deposited data

How the results depend on the processing

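No paired analysis was possible because the genotypes share no replicate number, so the blocked fit pairs libraries by deposited table only. Over all tested genes edgeR on 4 libraries called 0 higher and 2 lower. DESeq2 called 2 and 6, edgeR with the table as a block 2 and 27, and edgeR with 1 library left out between 0 and 32 higher and between 5 and 182 lower, most without WT 4. Clustered protocadherins called higher were 0 to 3 over the libraries left out, 3 without WT 4, and those called lower 0 throughout. The alpha and gamma sums kept their direction in every alternative run. The beta sum had a log2 ratio of 0.00082 on 4 libraries, -0.32 for KO 5 against WT 4 alone, and -0.18 to 0.16 over the libraries left out. For 24 named genes under 8 alternatives, 176 of 192 log2 fold changes kept direction and call, 3 gained a call without WT 4 and 13 changed sign. The sign changes were in 6 genes near 0. Over the libraries left out, Pcdha2 ran from -0.28 to 0.41, Pcdhb17 from -0.22 to 0.35, Pcdhb19 from -0.20 to 0.18, Pcdhb20 from -0.25 to 0.18, Pcdhb22 from -0.25 to 0.29 and Pcdhga7 from -0.20 to 0.076. With the table as a block Pcdhb19 had -0.010 and Pcdhb22 0.012. The cause was not tested. The length free of same-strand genes only, an alternative chosen after seeing the data, gave a median of 2.28 CPM per kb in gamma, 1.07 in beta and 1.05 in alpha. Precision is limited by 2 libraries per genotype and, for genes such as Pcdhac1 with 6 to 20 counts, by counting error.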
